A study of Mus musculus with 2 samples.

Results

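Follicular B2 B cells of the mouse omentum were taken from 2 single-cell RNA libraries, 1 per genotype. The members were selected on measured values, and no sort or deposited annotation was used. A cell was a member when Cd79a and Ms4a1 were above 0, Cd3e was at 0, the Jchain value was below a limit that separates plasma cells, and at least 2 of Fcer2a, Cr2, Vpreb3 and Ighd were above 0. At most 1 of 7 B1 genes (Zbtb32, Bhlhe41, Fcrl5, Sox5, Cdh17, Nid1 and Adm) and fewer than 2 of 4 cell cycle genes (Mki67, Top2a, Ube2c and Birc5) could be above 0. The rule gave 1828 members among 14414 cells, of which 1455 of 8680 came from the WT library and 373 of 5734 from the DTR library.

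The WT mice carried no diphtheria toxin receptor. The DTR mice were heterozygous for a receptor cassette inserted into the first coding exon of Postn, so the promoter of Postn drives the receptor in every tissue that uses it, stomach, colon and bone among them. Both genotypes received diphtheria toxin (DT) by a single intraperitoneal injection and were examined 5 days later, so the toxin is shared and the receptor is the difference. The omenta of several mice were pooled in each library, and the age and sex of the mice were not found in the labels or methods. With 1 library per genotype there is no replicate check, no test between genotypes was made, and every interval below is a 95% interval that covers counting error only.

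Follicular B2 B cells are the recirculating B cells of blood, spleen and lymph nodes. They carry IgM and IgD, enter lymphoid tissue through high endothelial venules with CCR7, and follow CXCL13 through CXCR5 into follicles. The omentum holds milky spots, small lymphoid clusters in which these cells lie beside the self-renewing B1 cells of the peritoneal cavity. B cells, like other cells, keep their sterol content by feedback. When sterols are low, SREBP2 turns on the synthesis enzymes, and when sterols are high, LXR turns on the export pumps Abca1 and Abcg1 and the ubiquitin ligase Mylip.

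The members held a median of 4621 UMIs and 1715 genes in WT and of 3712 UMIs and 1502 genes in DTR. Mitochondrial UMIs made up a median of 2.25% and 2.16% of a member, and ribosomal protein genes 28.9% and 30.9%. The libraries shared 65 barcode sequences, and no shared barcode was a member in both. Free RNA was read from a T gate of 2205 WT and 239 DTR cells, with Cd3e above 0 and Cd79a, Ms4a1 and Jchain at 0. Levels below are UMIs of a gene per 10000 UMIs of the cell, averaged over the cells of a gate, and a ratio is DTR over WT on the log2 scale. The interval beside a ratio is that of the summed UMIs of the gate, which weights deep cells more, so it need not hold the ratio of averages. Postn itself had 3 UMIs in the WT members and 0 in the DTR members, too few to check the genotype.

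The B lineage genes beyond the rule were present in the members of both libraries. Cd79b, the partner of Cd79a in receptor signalling, was at 17.5 UMIs per 10000 in WT and 16.2 in DTR, against 0.207 and 0.168 in the T gate. Pax5, the factor that holds B cell identity, was at 2.73 and 2.0, and Ebf1 at 6.08 and 4.46. Several single markers of other B cell states were low, but the lists of such markers were not low as a whole. The transitional and immature markers, Vpreb3 and Cd24a among them, summed to 8.03 in WT and 8.03 in DTR. B1 markers beyond the rule summed to 22.3 and 23.9, and antibody-secreting cell markers to 8.56 and 9.34. Cd5, found on B1a cells, was at 0.0222 and 0.0257 with 19 and 4 UMIs. Rag1 and Igll1, used by B cell precursors, had 0 UMIs in both libraries, and of the 11 transitional and immature markers in the files 2 were at 0 in WT and 4 in DTR. Cd93, a surface marker of transitional cells, was at 0.0778 and 0.167 with 59 and 25 UMIs. S100a6, which was at 27.3 in the WT B1 gate, was at 3.78 in the WT members.

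The share of members was lower in DTR with each denominator used. Members made up 16.8% of all WT cells (Clopper-Pearson 16 to 17.6) and 6.51% of all DTR cells (5.88 to 7.17), a ratio of shares of 0.388 (Katz interval 0.348 to 0.433). Plasma cells hold much Jchain. Without cells at or above the Jchain limit, which left 8079 WT and 3680 DTR cells, the shares were 18% and 10.1%, a ratio of 0.563. Of all B cells, members were 54% in WT (1455 of 2696) and 36.4% in DTR (373 of 1026), a ratio of 0.674 (0.617 to 0.736). The B1 gate took up 21.6% of B cells in WT and 25.4% in DTR, a ratio of 1.18 (1.04 to 1.34), and cycling B cells 4.97% and 5.65%, a ratio of 1.14 (0.843 to 1.53). The remaining B cells, which met no gate, took up 19.4% and 32.6%. Of all cells, the B1 gate was 6.72% in WT and 4.55% in DTR, a ratio of 0.678 (0.588 to 0.781). With the same denominator the ratio was 0.655 for cycling B cells, 0.965 for the remaining B cells and 0.164 for the T gate. The T gate needs Jchain at 0, while the B gates allow Jchain below the limit. Jchain was above 0 in 411 of 1455 WT and 178 of 373 DTR members. The T gate may thus leave out more T cells in DTR, which was not tested, and its ratio is not set against those of the B gates. A lower share of all cells was thus not particular to the members. A share of cells does not give a number of cells per omentum, and fewer members cannot be told apart from more cells of other kinds. A B cell with fewer than 2 rule markers falls outside the members. Fewer members thus cannot be told apart from lower marker RNA per B cell either.

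**Figure D1:**
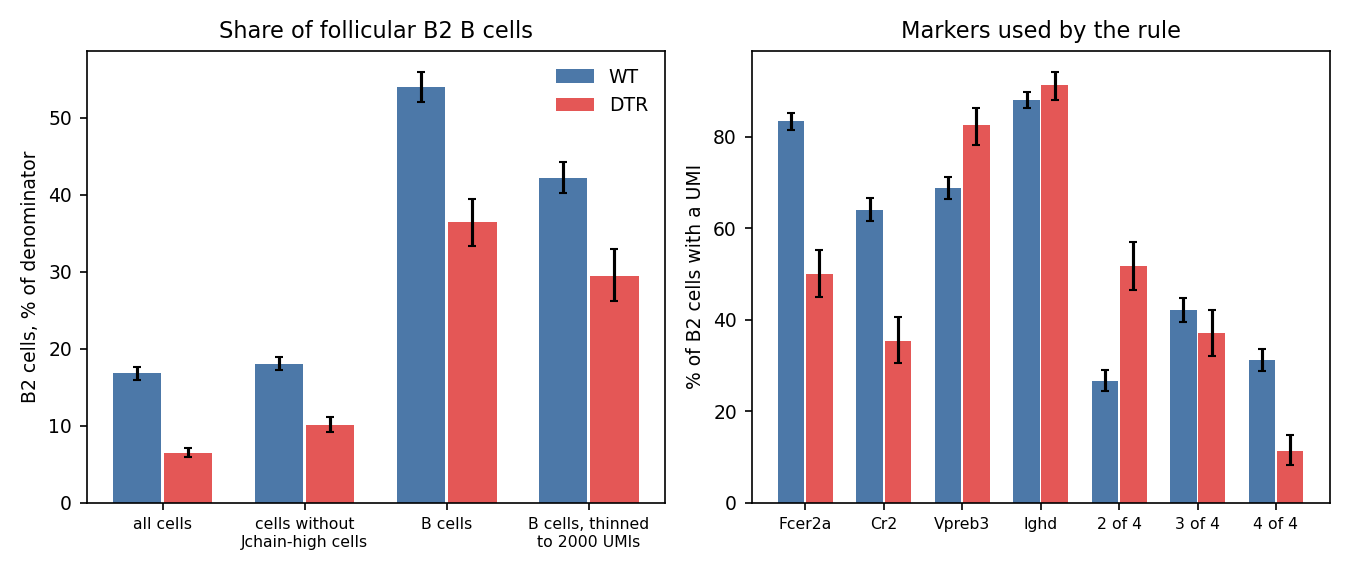
The left panel plots the members as a percent of 4 denominators in WT and DTR, and the right panel the percent of members with a UMI of each rule marker and with 2, 3 or 4 of the markers. Bars start at 0 and error bars are exact 95% binomial intervals: each WT share on the left lies above its DTR share, and on the right Fcer2a and Cr2 are less frequent in DTR (50.1% and 35.4%) than in WT (83.4% and 64.1%).

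The 4 markers of the rule had unequal shares in the libraries. These values chose the members and are given as a description. Fcer2a, the low-affinity IgE receptor CD23 of follicular cells, was present in 83.4% of WT and 50.1% of DTR members, and its level was 5.00 and 2.46. Cr2, the complement receptor CD21, was present in 64.1% and 35.4%, with levels of 2.76 and 1.41. Vpreb3, a protein of early and naive B cells, was present in 68.9% and 82.6%, with levels of 3.85 and 6.08, and Ighd, the constant region of IgD, in 88.1% and 91.4%, with levels of 5.63 and 6.24. A WT member held all 4 markers in 31.2% of cases and a DTR member in 11.3%, while 26.7% of WT and 51.7% of DTR members sat at the limit of 2 markers. Just outside the limit, 181 WT and 114 DTR cells met every other condition with 1 marker. Cells with 1 marker had Ccr7 at 6.76 in both libraries and S100a6 at 6.11 in WT and 10.3 in DTR, beside Ccr7 of 7.38 and 8.74 and S100a6 of 4.81 and 4.64 in cells with 2 markers. For Jchain the highest member value was 2.83 in WT and 3.43 in DTR, and the lowest value past the limit was 4.31 and 4.17, in 17 and 14 cells.

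Each marker was also read in cells picked by 2 or more of the other 3 markers, so that its own presence did not choose the cells. Fcer2a was then at 4.86 in 1217 WT cells and 2.20 in 329 DTR cells. Cr2 was at 2.67 and 1.21, Vpreb3 at 3.63 and 5.71, and Ighd at 5.46 and 5.33. In these cells Fcer2a and Cr2 were on the low side in DTR, Ighd was nearly level, and Vpreb3 was on the high side. The other 3 markers still chose the cells, so this is a description. Over all B cells, B1 cells among them, Fcer2a was at 3.0 in WT and 0.961 in DTR, and Cr2 at 1.72 and 0.586. Ighd was there at 3.61 and 2.93 (summed UMIs -0.76 to -0.58), and Vpreb3 at 2.35 and 2.73 (-0.14 to 0.053).

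Across the members 7333 genes had at least 100 UMIs over both libraries. Of these, 120 genes were at least 2-fold higher in DTR, which is 1.64%, and 126 were at least 2-fold lower, which is 1.72%. The median ratio over the genes tested was -0.0051. V, D and J segments made up 18 of the higher and 26 of the lower genes, and in 43 of the higher genes and 10 of the lower a single cell held over 20% of the UMIs of the higher library. After these, the rule genes and the genes with a counting interval that reached 0 were left out, 67 higher and 85 lower genes remained. Of these, 28 higher and 22 lower genes also passed 2-fold in the same direction in the B1 gate, and 11 and 13 in the T gate. The share of all genes tested that passed 2-fold in those gates is not given here. These counts are therefore not read as more overlap than that share. Genotype and library cannot be told apart in any of these values.

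**Figure D2:**
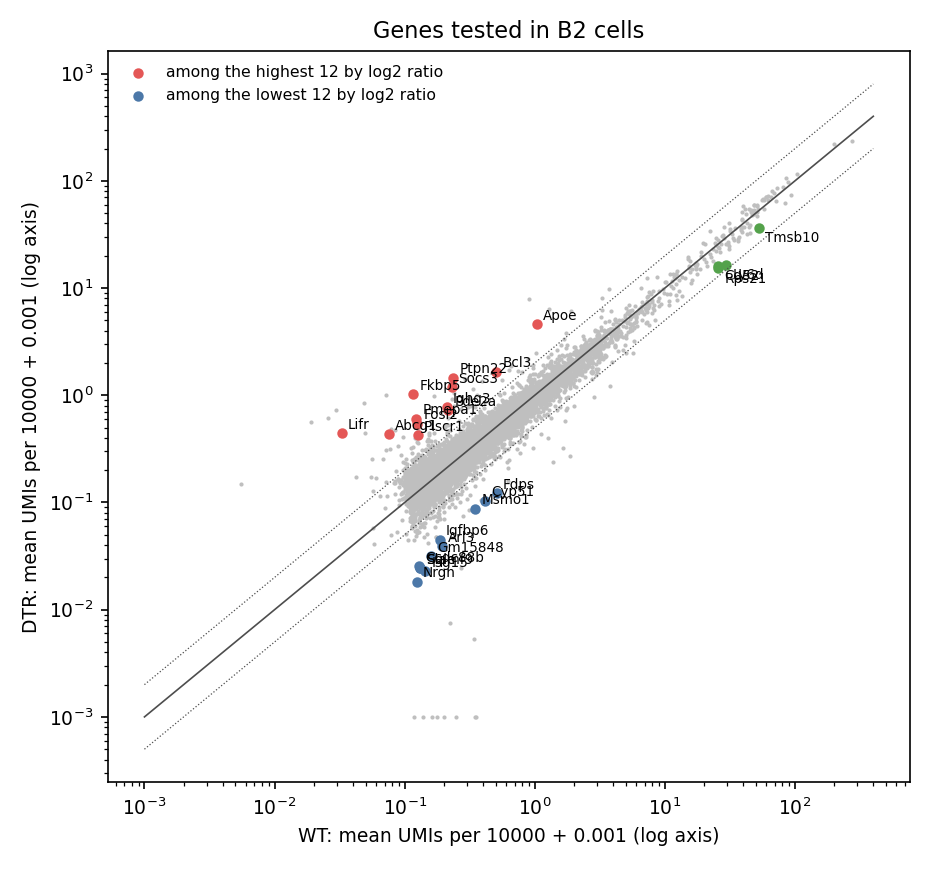
Each point is 1 gene tested, with its mean UMIs per 10000 in WT members on the x axis and in DTR members on the y axis, both with 0.001 added and on log axes; the solid line marks equal levels and the dotted lines 2-fold. The 12 genes with the highest ratio (red), led by Lifr at 3.8, and genes among the 12 with the lowest (blue), such as Nrgn at -2.84, lie outside the dotted lines, and the 4 green genes (Rps21, Tmsb10, Ly6d and Cd52) lie inside, below the solid line.

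Sterol genes stood on both sides. Of 18 genes listed for cholesterol efflux, uptake and synthesis, 15 were tested, 8 were at least 2-fold lower in DTR and 3 at least 2-fold higher, with a median ratio of -1.05 beside -0.0051, 1.72% lower and 1.64% higher over all genes tested. After thinning to 1000 UMIs only 3 of its genes were left, with a median of 0.26. The list was chosen with earlier results of these data known, so its direction is not independent evidence. The lower genes included the enzymes Sqle, Fdps, Msmo1, Cyp51, Idi1 and Hmgcs1, and Insig1, which holds the SREBP complex in the endoplasmic reticulum and is itself an SREBP target. The 3 higher genes were the LXR targets Abcg1, Abca1 and Mylip.

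The sequence before the start of 3 of the lower genes is given here, since the SREBP group shares a sterol response element in its promoters. The RefSeq promoter table (GRCm38.p6) held 11 of the 18 listed genes, and the 3 shown are those with a TCACNNCA match. The lower genes Idi1 and Insig1 had a promoter there but no such match. Each line gives the 250 bases before the start site, 5′ to 3′ on the strand of the gene, and capitals mark a match to TCACNNCA on either strand. Hmgcs1 lies on the plus strand at chr13:119690101-119690350, Cyp51 on the minus strand at chr5:4104698-4104947 and Msmo1 on the minus strand at chr8:64733579-64733828.
Hmgcs1: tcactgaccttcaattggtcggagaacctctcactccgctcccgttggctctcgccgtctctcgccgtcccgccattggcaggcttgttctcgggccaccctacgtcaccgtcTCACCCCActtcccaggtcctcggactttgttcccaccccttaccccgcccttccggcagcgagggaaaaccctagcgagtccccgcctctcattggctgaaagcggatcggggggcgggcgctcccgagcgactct
Cyp51: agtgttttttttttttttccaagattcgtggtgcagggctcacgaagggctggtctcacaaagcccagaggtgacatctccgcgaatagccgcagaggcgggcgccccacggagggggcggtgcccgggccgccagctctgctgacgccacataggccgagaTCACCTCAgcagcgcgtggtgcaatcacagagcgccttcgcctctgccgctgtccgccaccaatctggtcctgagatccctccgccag
Msmo1: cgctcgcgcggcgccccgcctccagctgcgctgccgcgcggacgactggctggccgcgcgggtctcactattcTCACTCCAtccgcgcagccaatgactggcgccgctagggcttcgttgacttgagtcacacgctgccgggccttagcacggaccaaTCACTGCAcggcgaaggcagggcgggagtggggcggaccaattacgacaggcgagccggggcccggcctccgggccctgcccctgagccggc

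Hmgcs1 held the longer form TCACNCCAC, 137 bases before its start, and 1.05% of all 32851 promoters of the same length held that form on either strand. The shorter form TCACNNCA, which lies inside the longer one, was found 137 bases before the start of Hmgcs1, 88 before that of Cyp51, and 177 and 92 before that of Msmo1. It was present in 3 of the 11 listed genes with a promoter and in 11.4% of all promoters. CCAAT, the letters bound by NF-Y, stood in 8 of the 11 and in 33.8% of all promoters. A listed gene with several promoters counted when any of them matched, while the shares of all promoters count each promoter. These matches describe letters in this window and say nothing of binding, and the motifs were chosen after the levels were seen.

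Sqle, squalene epoxidase, had 102 UMIs in 88 WT members and 4 UMIs in 4 DTR members. Its levels were 0.131 and 0.0235, a ratio of -2.47 (summed UMIs -4.39 to -1.08). Fdps, which makes farnesyl pyrophosphate, was at 0.507 in WT and 0.122 in DTR, a ratio of -2.05, and the ratio of summed UMIs was -1.37 (-1.94 to -0.85). Msmo1 and Cyp51, 2 enzymes that remove methyl groups from lanosterol derivatives, were at 0.349 and 0.0866 and at 0.415 and 0.103, both at a ratio of -2.01. Idi1 was at 0.279 and 0.0738, and Insig1 at 0.385 and 0.104. Hmgcs1, HMG-CoA synthase, was at 0.344 and 0.167, a ratio of -1.05 (-1.7 to -0.5).

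The export side ran the other way. Abcg1 was at 0.0746 in WT and 0.433 in DTR, a ratio of 2.54 (1.89 to 2.98 on summed UMIs). Abca1 was at 0.318 and 0.801, a ratio of 1.33 (0.95 to 1.61). Mylip was at 0.557 and 1.39, a ratio of 1.32 (0.84 to 1.34). Of the regulators, Nr1h2, which encodes LXRβ, was at 0.618 and 0.727, and Srebf1, which encodes SREBP1, at 0.272 and 0.248, both within 2-fold. No value is given here for the gene of SREBP2. Scd1, a fatty acid desaturase, was at 3.23 and 4.29.

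Summed over 8 genes of synthesis (Hmgcs1, Sqle, Idi1, Insig1, Fdps, Cyp51, Lss and Msmo1), the level was 2.48 in WT members and 0.751 in DTR members, a ratio of -1.73 (summed UMIs -1.78 to -1.28). Summed over Abca1, Abcg1 and Mylip, the level was 0.95 and 2.62, a ratio of 1.46 (1.13 to 1.5). These 3 are the listed genes called higher above, and the synthesis sum holds the lower genes named above and Lss. The direction of each sum in the members was thus set by the choice of genes. By marker number and after thinning it is a description and not independent evidence. The opposite differences were present at every number of rule markers. Members with 2 markers had a synthesis level of 2.64 in WT and 0.758 in DTR, those with 3 markers 2.21 and 0.733, and those with 4 markers 2.72 and 0.779. The export level in the same order was 1.04 and 2.81, 0.915 and 2.55, and 0.919 and 1.98.

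Thinned to 1000 UMIs per cell, which leaves out 1 member of each library, 19.7% of WT members (17.7 to 21.8) and 5.91% of DTR members (3.74 to 8.82) had a UMI of any of the 8 synthesis genes, beside 52% and 25.5% without thinning. For the 3 export genes the thinned shares were 9.63% (8.16 to 11.3) and 21.8% (17.7 to 26.3), beside 32.4% and 57.4% without thinning. In the T gate the thinned shares were 14.3% and 14.8% for synthesis and 4.78% and 6.36% for export. T cells also use these genes, so the T gate is no empty background here.

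The B1 gate, drawn from the same libraries, had a synthesis level of 1.34 in WT and 0.559 in DTR, a ratio of -1.26, and an export level of 0.652 and 2.34, a ratio of 1.85. The other B cells had ratios of -0.92 and 1.27, and the T gate of -0.41 and 0.48. The direction was the same in each gate, and the difference of the ratios between gates was not tested. Single genes departed from this: Sqle had a ratio of 0.074 and Msmo1 of -0.055 in the T gate, beside -1.91 and -1.19 in the B1 gate.

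**Figure D3:**
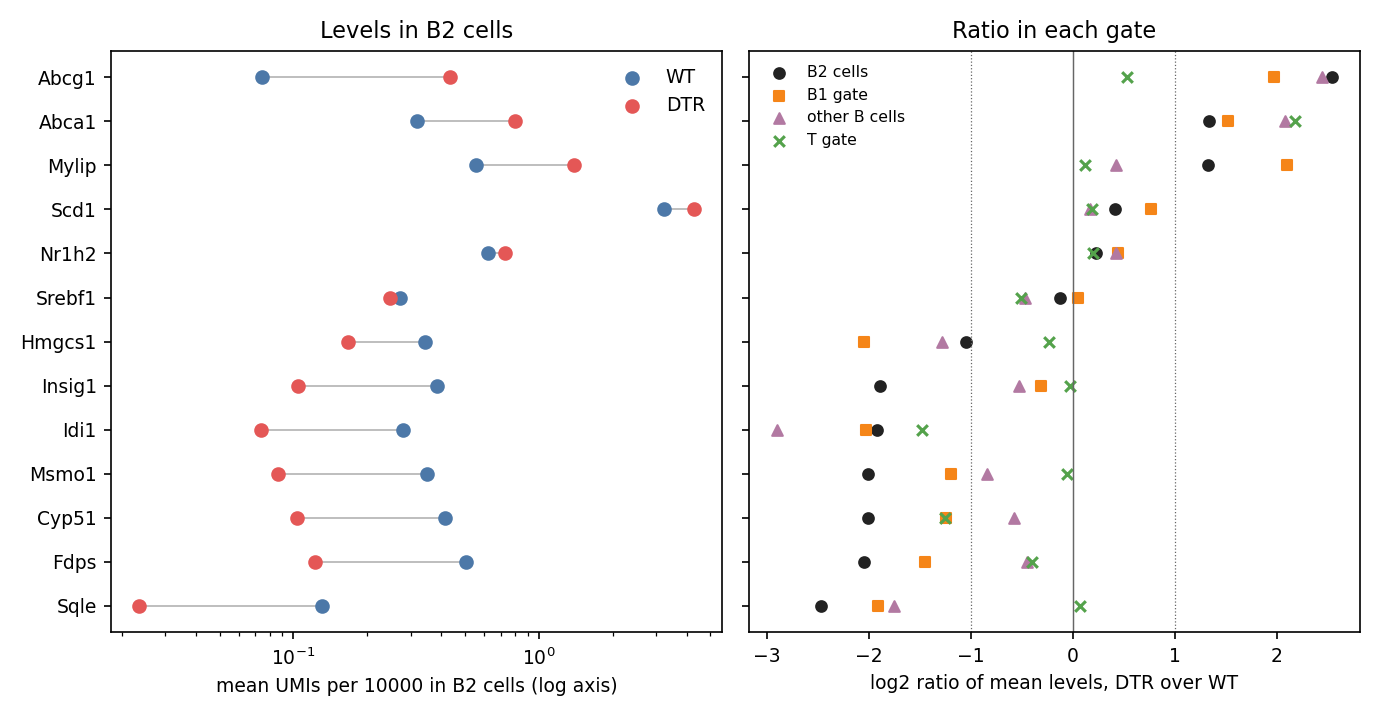
The left panel plots, for 13 sterol genes tested, the mean UMIs per 10000 in WT (blue) and DTR (red) members on a log axis, and the right panel the log2 ratio of DTR over WT in the members, the B1 gate, the other B cells and the T gate; dotted lines mark 2-fold. Of the genes plotted Sqle at -2.47 is lowest and Abcg1 at 2.54 is highest in the members, and the B1 points lie on the same side of 0 as the member points in all of them but Srebf1.

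Several glucocorticoid-induced genes were higher in the DTR members. Of 15 genes listed, 11 were tested, 3 were at least 2-fold higher and 0 at least 2-fold lower, with a median ratio of 0.41, beside 1.64% higher over all genes tested. The median was 0.14 with 3 or more markers (9 genes tested) and -0.054 after thinning (5 genes), so the list as a whole had no steady direction. Fkbp5, the cochaperone that the glucocorticoid receptor turns on, was at 0.115 in WT and 1.03 in DTR, a ratio of 3.16 (2.64 to 3.41 on summed UMIs), with 90 and 160 UMIs. Thinned to 1000 UMIs, 1.38% of WT members (0.842 to 2.12) and 11.0% of DTR members (8.03 to 14.7) had a Fkbp5 UMI, beside 5.64% and 33.0% without thinning and thinned T gate shares of 2.41% and 7.63%. Pik3ip1, an inhibitor of PI3 kinase, was at 0.358 and 1.01, a ratio of 1.49. Tsc22d3, which encodes GILZ, was at 3.21 and 5.35, a ratio of 0.74 (0.61 to 0.85). Cdkn1a, the cell cycle inhibitor p21, was at 0.101 and 0.202, but its ratio came to -0.73 among members with 3 or more markers. Cxcr4 was the exception among the tested genes, with a ratio of -0.25 that came to -0.054 after thinning.

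The same genes were higher in DTR in other gates. In the B1 gate Fkbp5 was at 0.0979 and 1.20, a ratio of 3.61, and Tsc22d3 at 2.41 and 5.70, a ratio of 1.24. In the T gate Fkbp5 was at 0.296 and 0.954, a ratio of 1.69, and Tsc22d3 at 1.72 and 3.63. Within the members the Fkbp5 level in DTR was 1.10, 0.986 and 0.812 with 2, 3 and 4 markers, against 0.0777, 0.119 and 0.142 in WT.

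Interferon-stimulated genes were on the low side. Of 22 genes listed, 12 were tested, all 12 had ratios below 0, 4 were at least 2-fold lower and 0 at least 2-fold higher, with a median ratio of -0.63, beside 1.72% lower over all genes tested. The median stayed below 0 in every alternative run, at -0.40 after thinning (5 genes). Ifi27l2a was at 3.76 in WT and 1.23 in DTR, a ratio of -1.61 (summed UMIs -1.62 to -1.24). Isg15, a ubiquitin-like protein, had 137 and 5 UMIs and levels of 0.143 and 0.0218. Ifi213, a member of the p200 family, was at 0.274 and 0.128, a ratio of -1.11 that came to -0.56 with 3 or more markers. Irf7, at 0.156 and 0.128, had the ratio nearest to 0 of the tested genes, with -0.28 and an interval from -1.01 to 0.35.

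Thinned, 25.9% of WT members (23.6 to 28.2) and 9.41% of DTR members (6.64 to 12.8) had an Ifi27l2a UMI, beside 63.1% and 29.8% without thinning. The T gate had 27.1% and 17.4%, and the Ifi27l2a ratio was -1.42 in the B1 gate and -0.82 in the T gate. Isg15 differed between gates in its ratio, with -2.71 in the members, -0.97 in the B1 gate and 0.043 in the T gate, a difference that was not tested.

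The genes with the highest ratios included receptors and inhibitors of signalling. Lifr, the receptor of leukaemia inhibitory factor, was at 0.0317 in WT and 0.441 in DTR, with 29 and 79 UMIs and a ratio of 3.8 (3.0 to 4.30). Its ratio was 2.26 in the B1 gate, and its T gate level was 0.00641 and 0.0119. Ptpn22, a phosphatase that restrains antigen receptor signalling, was at 0.235 and 1.46, a ratio of 2.64 (summed UMIs 2.21, 1.93 to 2.48), while the B1 gate had 1.53 and 2.13 and the T gate 1.90 and 2.58. The level in DTR members was near that of the WT B1 gate. Socs3, an inhibitor of cytokine signalling, was at 0.230 and 1.19, and Bcl3, a nuclear partner of NF-κB, at 0.502 and 1.66, a ratio of 1.73.

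The other genes of this group were Pmepa1 at 0.121 and 0.606, a TGF-β-induced inhibitor, the AP-1 factor Fosl2 at 0.124 and 0.544, the cyclic nucleotide phosphodiesterase Pde2a at 0.214 and 0.722, and the scramblase family gene Plscr1 at 0.125 and 0.422. Apoe, the lipid carrier of macrophages and other cells, was at 1.04 and 4.64, a ratio of 2.16, with T gate levels of 0.305 and 0.947 and B1 levels of 2.0 and 9.94. The T gate level was higher in DTR too, and the part of free RNA in the Apoe of the members was not tested. Of the 12 genes with the highest ratios, Fkbp5, Socs3, Apoe, Ighg3 and Bcl3 also passed 2-fold in the T gate, as did 11 of the 67 higher genes left above. The T gate share over all genes tested is not given here, so no overlap beyond that share is read from these genes.

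Among the 12 lowest, the genes outside the sterol list had few UMIs in DTR. Sqle and Isg15, described above, had fewer DTR UMIs than Nrgn. Nrgn had 143 and 6 UMIs, and its WT UMIs came from 36 cells. Slamf9, a receptor of the SLAM family, was at 0.130 and 0.0233, and Ccdc88b at 0.127 and 0.0244. Arl3, a small GTPase, was at 0.191 and 0.0379, and Igfbp6, a binding protein of insulin-like growth factors, at 0.185 and 0.0440. Gm15848 was at 0.157 and 0.0306 and is annotated as antisense (GENCODE, chromosome 1, 130809977 to 130824084, minus strand), so its reads may belong to a gene on the other strand. The B1 gate ratio was -3.21 for Gm15848 but -0.41 for Slamf9 and -0.50 for Arl3.

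The identity genes of the mature B cell were mostly lower in DTR by less than 2-fold. All 19 genes of the list were tested, 0 passed 2-fold, 17 had ratios below 0, and the median was -0.21. Over all genes tested 1.64% were at least 2-fold higher and 1.72% at least 2-fold lower, so 0 of 19 is near that share. The largest were Ly6d at 29.6 and 16.5, Cd55, which blocks complement, at 2.74 and 1.61, and Cd72, an inhibitory coreceptor, at 2.74 and 1.70. Pou2af1, the coactivator OCA-B, was on the high side, at 2.02 and 2.43. In B cell receptor signalling 22 genes were tested, Ptpn22 was higher and Rasgrp3, which activates Ras below the receptor, was lower, at 0.857 and 0.411, a ratio of -1.06 that came to -0.84 with 3 or more markers.

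The 4 genes that the study names for T and B2 cells were all lower in DTR, each by less than 2-fold. The list was chosen by the study on these samples, and its direction is not independent evidence. Ly6d, a GPI-anchored protein of B lineage cells, had a ratio of -0.85 (-0.87 to -0.75), Rps21 of -0.73, Cd52 of -0.66 and Tmsb10 of -0.52. Over the members, the middle 50% of WT cells held 17.3 to 39.0 UMIs per 10000 of Ly6d around a median of 27.8, and the middle 50% of DTR cells 7.17 to 22.9 around 14.6. For Tmsb10 the quartiles were 39.5 and 62.9 in WT and 25.1 and 47.1 in DTR, and for Rps21 19.3 and 31.4 against 10.4 and 19.7. The WT and DTR ranges overlapped for each of these genes.

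Rps21 had the lowest ratio of the 81 ribosomal protein genes tested, of which 51 were above 0 and 30 below, with a median of 0.099. It was also lower in the B1 gate at -0.83 and in the T gate at -0.70. Of 13 actin and thymosin genes 11 had ratios below 0 and 0 passed 2-fold, beside 1.64% higher and 1.72% lower over all genes tested. Tmsb4x was at 83.8 and 62.7 and Actb at 92.9 and 73.1.

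Homing genes stayed within 2-fold. Of 24 genes listed for homing, egress and retention 22 were tested and 0 passed 2-fold in either direction, with a median of -0.20. Over all genes tested 1.64% were at least 2-fold higher and 1.72% at least 2-fold lower, so 0 of 22 is near that share. Ccr7 was at 7.23 in WT and 8.20 in DTR and was found in 42.2% and 45.4% of thinned members, 79% and 78.3% unthinned, with 15.5% and 8.9% of thinned T gate cells. Cxcr5, the receptor for CXCL13, was at 2.01 and 1.68, a ratio of -0.25 that came to 0.060 after thinning, and in 16.3% and 17.2% of thinned members against 0.957% and 0.847% of the T gate. Cxcr4, the receptor for CXCL12, was at 1.56 and 1.30. S1pr1, the egress receptor, was at 1.71 and 1.98, and Klf2, which drives S1pr1, at 5.49 and 4.66, both with intervals on summed UMIs that reach 0.

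The integrin chains Itgal and Itgb7 were the lowest of the homing genes. Itgal, part of LFA-1, was at 0.676 and 0.355, a ratio of -0.93 (-1.26 to -0.48). Itgb7, which pairs with Itga4 to bind MAdCAM-1, was at 1.42 and 0.797, a ratio of -0.84 (-1.23 to -0.67), while Itga4 itself was at 2.0 and 1.66. Itgb2, the partner of Itgal, had a ratio of -0.0071. Of 4 retinoic acid genes tested 0 passed 2-fold, beside 1.64% higher and 1.72% lower over all genes tested, with Rara at 0.526 and 0.659.

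Most genes of the other lists stayed within 2-fold, as did most of all genes tested, of which 1.64% were higher and 1.72% lower. Counts of 0 in these lists are near that share. All 13 MHC class II and costimulation genes tested had ratios below 0, with Ciita, their master regulator, lowest at 1.28 and 0.820 and Cd74 at 273 and 236. The T gate held less MHC class II RNA in DTR as well, with Cd74 at 5.00 and 0.665 and H2-Aa at 1.66 and 0.0386. Of 17 genes of BAFF, CD40 and survival 0 passed, and Pim2 at 0.261 and 0.488 and Nfkb2 at 1.19 and 0.763 stood at the ends. None of the 20 activation and immediate early genes, 16 MYC targets, 8 clock genes, 9 marginal zone, 5 memory or 2 germinal centre markers tested passed 2-fold, and of the 12 B1 markers tested beyond the rule Ptpn22 alone did. Of 8 antibody-secreting cell markers tested Jchain, a gene of the rule, and Slpi, at 0.111 and 0.319, were at least 2-fold higher, but the Slpi ratio of 1.52 came to 0.73 without the top 5% of doublet scores. Pdcd4, a translation inhibitor among 13 quiescence genes, was at 1.03 and 2.46, a ratio of 1.26 (0.99 to 1.35), and of the 13 it alone passed. Cd24a was at 4.36 and 2.57, a ratio of -0.76, and in 32.7% and 19.4% of thinned members, beside 76.9% and 56.8% without thinning.

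**Figure D4:**
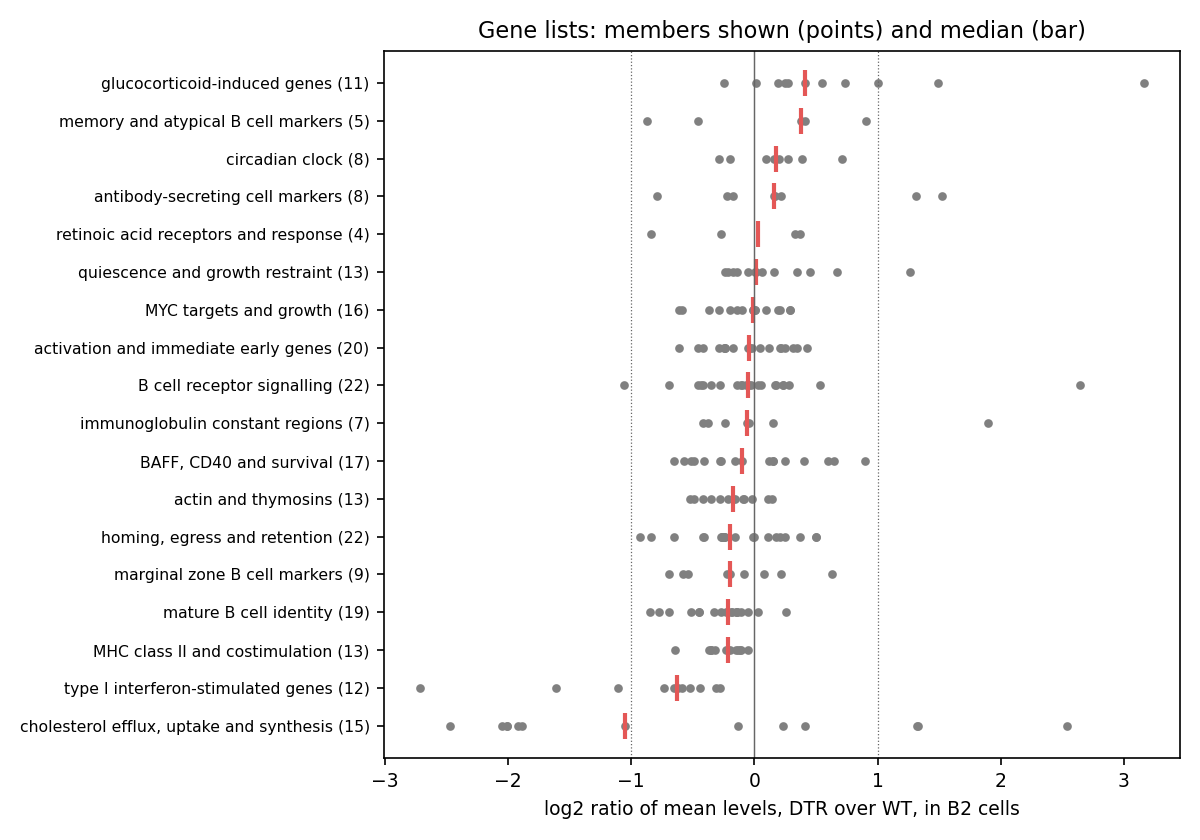
Each grey point is the log2 ratio of DTR over WT of 1 tested gene in the members, grouped by list with the number tested in brackets (a few of these are not plotted); the red bar is the median over all tested and dotted lines mark 2-fold. The sterol list has the lowest median at -1.05 with points on both sides of 0, the interferon list lies wholly below 0, and of the lists plotted the glucocorticoid list has the highest median at 0.41.

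Ighm was found in 99.6% of WT and 98.7% of DTR members, beside 64.7% and 77.0% of the T gate, so its RNA was widespread outside B cells. Ighd is a marker of the rule, and its shares above were set in part by the choice of members. Ighg3 was found in 8.04% of WT (6.7 to 9.56) and 21.7% of DTR members (17.6 to 26.3). In the T gate it was found in 5.17% (4.28 to 6.18) and 18% (13.3 to 23.5). The DTR share was thus close to that background, while the WT share was somewhat above it. The T gate leaves out cells with Jchain, and the part of free RNA in these shares was not tested. With 2 or more UMIs the member shares were 1.44% and 4.02%. Igha was found in 3.44% and 1.07% of members, beside 0.59% and 0.418% of the T gate. Ighg1 was found in 2.54% and 0.804% of members and in 2.45% and 0% of the T gate, so the WT share was at the background. For Ighe 0 of 1455 and 0 of 373 members had a UMI, and the exact upper bounds were 0.253% and 0.984%.

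Light chain constant genes did not separate the members into kappa and lambda cells. Igkc was found in 95.8% of WT and 96.0% of DTR members and Iglc1, Iglc2 or Iglc3 in 99% and 94.4%, so 94.8% and 90.9% held both. More lambda than kappa constant UMIs were counted in 57.0% and 56.1% of the members with unequal counts, and a kappa V segment with 5 or more UMIs was found in 93.4% and 91.4%. A lambda share is therefore not read from these constants.

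A heavy-chain V segment was assigned as the segment with the most UMIs, ties left out. With at least 1 UMI, 1356 WT members used 90 segments and 348 DTR members 73. Because free V segment RNA was present, a minimum of 5 UMIs, chosen after the data were seen, left 923 WT members with 85 segments and 258 DTR members with 66. At this minimum 0.816% of WT and 10.5% of DTR T gate cells still received a heavy segment. Ighv3-6 led in WT with 6.39% of assigned members (4.90 to 8.17), followed by Ighv1-26 with 4.55%, and their DTR shares were 5.04% and 2.33%. Ighv5-17 was at 3.79% and 0.775%.

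Ighv1-11 was the exception. It was the segment of 1.3% of assigned WT members and of 18.6% of DTR members (14.0 to 23.9), and it was also the segment of 16 of the 18 WT and 24 of the 25 DTR T gate cells that received one. The kappa segment Igkv14-126 was at 0.957% and 5.87% of assigned members, and took 93 of 124 and 33 of 50 calls in the T gate. As a share of all cells of a gate, Ighv1-11 calls took up 0.825% of WT members (0.427 to 1.44) and 12.9% of DTR members (9.64 to 16.7), beside 0.726% (0.415 to 1.18) and 10.0% (6.54 to 14.6) of the T gate. Igkv14-126 calls took up 0.893% and 5.36% of members, below the 4.22% and 13.8% of the T gate. No difference in receptor use is read from these 2 segments, and how many of the members carry them was not tested. Of the other leading kappa segments, Igkv1-135 at 5.15% and 4.99% and Igkv1-110 at 4.34% and 4.69% had shares close to each other. Igkv10-96 was at 8.02% (6.63 to 9.59) and 5.28% (3.16 to 8.21), and Igkv14-111 at 3.9% (2.93 to 5.07) and 1.76% (0.648 to 3.79). Igkv1-117 was at 3.9% (2.93 to 5.07) and 6.16% (3.85 to 9.26).

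**Figure D5:**
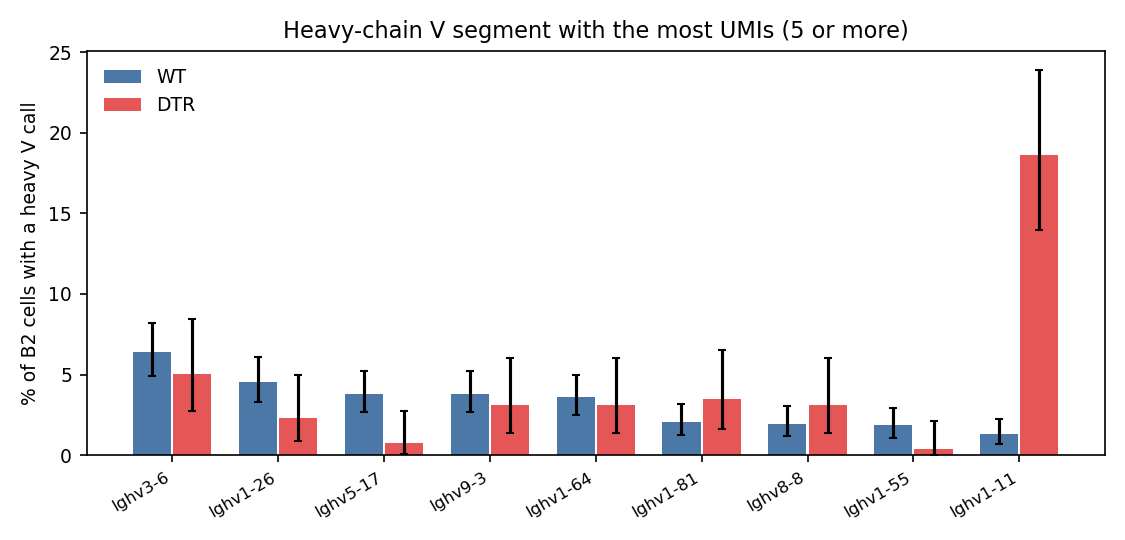
Bars give the percent of members with a heavy-chain call of 5 or more UMIs that used each segment, in WT (blue) and DTR (red), from 0, with exact 95% binomial intervals. Ighv1-11 is at 1.3% in WT and 18.6% in DTR and also led the T gate calls, while Ighv3-6, Ighv9-3 and Ighv1-64 have overlapping intervals.

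RNA of other lineages differed between the libraries in the members. All 6 neutrophil genes tested of 10 listed were at least 2-fold higher in DTR, beside 1.64% over all genes tested. The listed genes had a summed level of 12.1 in WT and 41.5 in DTR, and 0 of the 10 were at 0 in either library. S100a8 was at 1.89 and 6.07, found in 50 and 33 members, a ratio of 1.68 that came to 0.83 without the top 5% of doublet scores, while the T gate had 4.37 and 12.9. All 6 genes were also at least 2-fold higher in the DTR T gate and at least 2-fold lower in the DTR B1 gate. The share of all genes tested that passed 2-fold in those gates is not given here. Ltf had 235 UMIs in 3 DTR members, and without the highest cell its ratio was -0.057. Macrophage, monocyte and dendritic genes summed to 6.0 and 9.23, T cell genes to 0.561 and 0.363 with 0 and 4 of 12 at 0, and stromal genes to 1.58 and 1.45. Erythroid genes summed to 1.21 and 0.0121, with Hba-a1 and Hba-a2 in 1 WT cell. Without members that held 10 or more such UMIs, which is 3.02% of WT and 4.56% of DTR members, 84 genes were at least 2-fold higher (1.19% of 7048 tested) and 120 at least 2-fold lower (1.70%), and the ratios were 3.21 for Fkbp5, 2.61 for Abcg1 and 3.89 for Lifr. The part of this RNA in the other results was not tested.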

How the data were processed

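One library each of WT and DTR omentum was measured on the 10x Chromium. The labels name a 5′ kit and the study's methods a 3′ kit, and the submitters' processing notes name Cell Ranger 6.0.0 and mm10. The authors deposited natural log values of 1 plus UMIs per 10000 per cell for 19960 genes. UMIs were recovered by dividing by the smallest step of each cell, and 99.96% of WT and 99.91% of DTR values were whole within 0.1 UMI. Cells with 200 to 7500 genes were kept. Total UMIs were 80175468 in 8680 WT and 81027330 in 5734 DTR cells. The 1078 symbols that were blank or repeated the ID were looked up by ID in the reference table of gene names.

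The level is the mean of UMIs per 10000, and no pseudocount was added. Genes with at least 100 UMIs were compared, and 2-fold was the call, since 1 library per group allows no test. Intervals on summed UMIs are exact conditional binomial intervals, may not hold the ratio of means, and shares have Clopper-Pearson or Katz intervals. Code was tested on simulated data. Named genes were the 12 highest and 12 lowest eligible ratios, up to 4 per list, identity genes, study genes and rule genes, and a few further list members were named after their values were seen. The members and lists were chosen with earlier results of these data known. The study's other filter, 25% mitochondrial UMIs, was an alternative. Scrublet (scanpy 1.11.5) marked 0.023% of WT and 1.27% of DTR cells with its automatic threshold and had not worked, so doublets stayed in. Some genes and their values are not reported here.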

Additional observations from a re-analysis of the deposited data

Results flagged for a closer look

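Under the same contrast, 8 genes moved in opposite directions in the members and in the B1 gate, with both counting intervals on summed UMIs clear of 0. The difference between the gates was not tested, each gate is 1 library per genotype, and the number of genes compared is not given here. Cxcr4 had a ratio of -0.25 in the members and 0.80 in the B1 gate, where its level was 0.520 in WT and 0.907 in DTR. Its member ratio came to -0.054 after thinning to 1000 UMIs. The thinned shares of B1 gate cells with Cxcr4 were 5.49% (3.78 to 7.66) in WT and 8.43% (5.36 to 12.5) in DTR. Bcl6, a repressor used by germinal centre B cells, had -0.39 and 0.90, but its member ratio came to 0.031 after thinning to 1000 UMIs. Cd22, an inhibitory receptor, had -0.14 and 0.56. Igkc had -0.38 and 0.25, and Ighm -0.062 and 0.24, while the T gate ratios were 2.14 and 0.78. H2-Aa had -0.15 and 0.21, Cd79b -0.11 and 0.045, and C1qbp, a mitochondrial protein, 0.29 and -0.26.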

How the results depend on the processing

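The share of members stayed below 1 as a ratio of DTR to WT under every alternative run. For all cells the ratio was 0.388, and it was 0.255 with 3 or more markers, 0.287 and 0.340 after thinning to 1000 and 2000 UMIs, and 0.563 without cells of high Jchain. For B cells it was 0.674, and 0.443 with 3 or more markers. Of DTR members 51.7% held only 2 markers, beside 26.7% of WT members, so the lower ratios with 3 or more markers follow from the rule markers themselves. The count of higher genes went from 120 to 314 with a minimum of 30 UMIs, 39 with 300, 21 after thinning, 73 with 3 or more markers, and 66 in members of 2000 to 6000 UMIs, a choice made after seeing the data. The count of lower genes went from 126 to 374, 41, 47, 141 and 85 under the same alternatives, so with 3 or more markers the split was 73 higher against 141 lower. Fewer genes were tested at 300 UMIs and after thinning (3982 and 2546). Over 128 named genes and 1149 values, 1012 lay between the reported ratio and the bounds of its counting interval, 135 moved beyond them, and 2 ratios past 2-fold changed sign: Cdkn1a at -0.73 with 3 or more markers and Ltf at -0.057 without its highest cell. Among genes under 2-fold, 18 values of 9 genes changed sign, such as Cxcr5 at 0.060 and Bcl6 at 0.031 after thinning, Lyz2 at -0.46 without the top doublet scores and C1qb at 0.11 without its highest cell. A 2-fold call was lost in 17 values of 10 genes. The cause was not tested for Cdkn1a. The sterol list median became 0.26 after thinning, where 3 of its genes were left, and the glucocorticoid list median -0.054, where 5 were left. The lowest and highest ratios over the alternatives were 2.87 and 3.24 for Fkbp5, 2.43 and 2.61 for Abcg1, 3.63 and 3.89 for Lifr, and -2.36 and -1.36 for Fdps. The doublet alternative planned with the automatic threshold was not run, and cells with the top 5% of scores were left out in its place, a choice made after seeing the data. No paired analysis was possible because each group holds 1 library. Depth limits genes under 100 UMIs, and 373 DTR members set the width of the intervals.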
